A study of Mus musculus with 16 samples.

Results

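Transcripts of 10 transcription factors that mark or shape cardiac fibroblasts were followed by RNA sequencing in cultured mouse heart fibroblasts. The cells had taken up an adenovirus for Cre recombinase or one for GFP, and transforming growth factor beta (TGF-beta) was given to part of both. The genes were chosen by name, with earlier results of these data known. By family they are the basic helix-loop-helix (bHLH) factors Tcf21, Scx and Hand2, the homeobox factor Meox1 and the GATA zinc finger factors Gata4 and Gata6. The others are the T-box factors Tbx20, Tbx5 and Tbx2 and the nuclear receptor Nr2f2. All 10 were found among the 55414 genes of the count table, and all 10 passed the filter on low counts that kept 15285 genes. The groups were Cre cells with TGF-beta, GFP cells with TGF-beta, Cre cells and GFP cells, with 4 libraries in each.

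Cardiac fibroblasts descend mainly from the epicardium, the outer layer of the embryonic heart, and keep active a set of transcription factors that they share with the developing heart. Tcf21 marks resting fibroblasts of epicardial origin, whereas Meox1 and Scx are known to be induced by TGF-beta, the signal under which fibroblasts become myofibroblasts, cells that contract and lay down matrix. Gata4, Hand2 and Tbx5 are best known as heart muscle regulators, and are among the factors that, when forced on fibroblasts, turn some of them into cells resembling cardiomyocytes.

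The libraries are taken to come from 4 cell preparations, marked by their replicate numbers, each of which gave 1 library to every group. Preparations 1 and 4 were labelled male and preparations 2 and 3 female. The treatment protocol describes cells of Has2 fl/fl mice, in which Cre recombinase deletes floxed sequence of Has2, the gene of a hyaluronan synthase, while the genotype label of all libraries reads Wild Type C57BL/6J. The titles of the Cre libraries read Has2 exon 2 knockout, which goes with the protocol and not with the genotype label. How the genotype label is to be read beside them is not stated. The labels give neither the age of the mice nor the number of hearts in a preparation. Without a block for the preparation, the spread behind each p-value is that between 4 preparations. With the preparation as a block it is what remains once preparation levels are taken out. Either may be technical. All cells were grown with basic fibroblast growth factor, were at passage 2, went without serum for 24 h, had virus for 5 h and were collected after 48 h of stimulation. TGF-beta and the same fibroblast growth factor, at 20 ng/mL, share a phrase of the protocol on stimulation that does not say which cells received the fibroblast growth factor. Its part in the differences between media cannot be told apart from that of TGF-beta.

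Library totals ranged from 17.9 to 48.7 M counts, and levels are given in CPM, counts scaled to the library total with TMM (trimmed mean of M values) factors, in the order of preparations 1 to 4. The targeted gene Has2 had 12.5, 11.0, 25.0 and 17.4 CPM in Cre cells given TGF-beta, against 15.3, 9.47, 21.9 and 20.7 in GFP cells with TGF-beta. Without TGF-beta it stood at 14.9, 13.5, 16.6 and 13.9 CPM in Cre cells, against 18.0, 15.3, 23.2 and 18.4 in GFP cells. The groups overlapped in both media. Has2 was lower in Cre cells in 4 of 4 preparations without TGF-beta, by -0.27, -0.18, -0.48 and -0.40 on the log2 scale, and in 2 of 4 with it. The Cre against GFP difference was not called (without TGF-beta, with the preparation as a block in the model, -0.32, 95% interval -0.65 to 0.00, edgeR unadjusted p = 0.0528 and adjusted p = 0.827), and whole-gene counts cannot separate reads of a deleted part from those of the rest of Has2. All 12 fibroblast markers (among them Pdgfra, Col1a1 and Vim) passed the filter, and their sum, to which Col1a1, Col1a2, Col3a1 and Fbln2 gave most, was 27365 to 64815 CPM in the 8 libraries with TGF-beta and 33625 to 67144 CPM in the 8 without. The single markers are given beside Tcf21. Of 18 cardiomyocyte markers 5 passed the filter (Tnnt2, Tnnc1, Tnni3, Mybpc3 and Nkx2-5). Actc1, Pln and Nppa had 0 counts in every library and Myh6 at most 1. The 5 summed to 6.25 to 18.9 CPM in the 8 libraries with TGF-beta and 8.52 to 26.7 CPM in the 8 without. The highest was Tnnt2, with up to 682 counts in a library. Its means were 6.07 CPM in Cre cells with TGF-beta, 4.14 in GFP cells with TGF-beta, 13.6 in Cre cells and 11.0 in GFP cells. Without the block, 0 of the 5 rose with TGF-beta, and 1 (Mybpc3) fell in Cre cells and 2 (Mybpc3 and Tnnt2) in GFP cells. With it 0 rose, and 2 fell in Cre cells and 3 in GFP cells. The 9 leukocyte markers summed to 408 to 1019 CPM in the 8 libraries with TGF-beta and 595 to 1594 CPM in the 8 without, the 6 mural markers to 45.2 to 144 CPM in the 8 libraries with TGF-beta and 59.5 to 161 CPM in the 8 without, and the 2 of 4 Schwann cell markers that passed the filter to 1.02 to 6.86 CPM in the 8 libraries with TGF-beta and 5.93 to 10.7 CPM in the 8 without. Without the block, 0 leukocyte markers rose and 2 fell with TGF-beta in both cell types, and 1 mural marker rose and 3 fell. Of all genes 14.0% rose and 16.3% fell in Cre cells, and 13.8% and 15.3% in GFP cells. With the block, 0 leukocyte markers rose in both, and 8 fell in Cre cells and 9 in GFP cells. Of the mural markers 2 then rose and 4 fell in both. The shares of all genes were then 25.2% and 27.3% in Cre cells, and 22.6% and 26.5% in GFP cells. No leukocyte, mural or Schwann cell marker was at 0 counts throughout, and the part of these cells in the results was not tested. The libraries of preparation 4 stood apart, since their 10 most abundant genes held 6.88% to 7.34% of the counts, against 10.3% to 12.1% in the other 12 libraries.

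TGF-beta moved the factors in opposite directions. In Cre cells Meox1 and Scx rose, Tcf21, Hand2, Tbx2, Nr2f2 and Gata4 fell, and Gata6, Tbx20 and Tbx5 were not called. Thus 2 of the 10 were called higher and 5 lower, where edgeR called 14.0% of all 15285 genes higher and 16.3% lower at a Benjamini-Hochberg adjusted p under 0.05. In GFP cells the same 2 rose and 4 fell, beside 13.8% and 15.3% of all genes, with Gata4 not called. With the preparation as a block in the model, 2 rose and 6 fell in Cre cells (25.2% and 27.3% of all genes), and 2 rose and 6 fell in GFP cells (22.6% and 26.5% of all genes). Gata4 and Tbx20 were then among those that fell in both. The median log2 fold change of the 10 factors was -0.59 in Cre cells and -0.60 in GFP cells, beside medians of 0.02 and -0.02 over all genes. In bulk RNA, fewer cells of a type and less RNA per cell cannot be told apart.

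**Figure D1:**
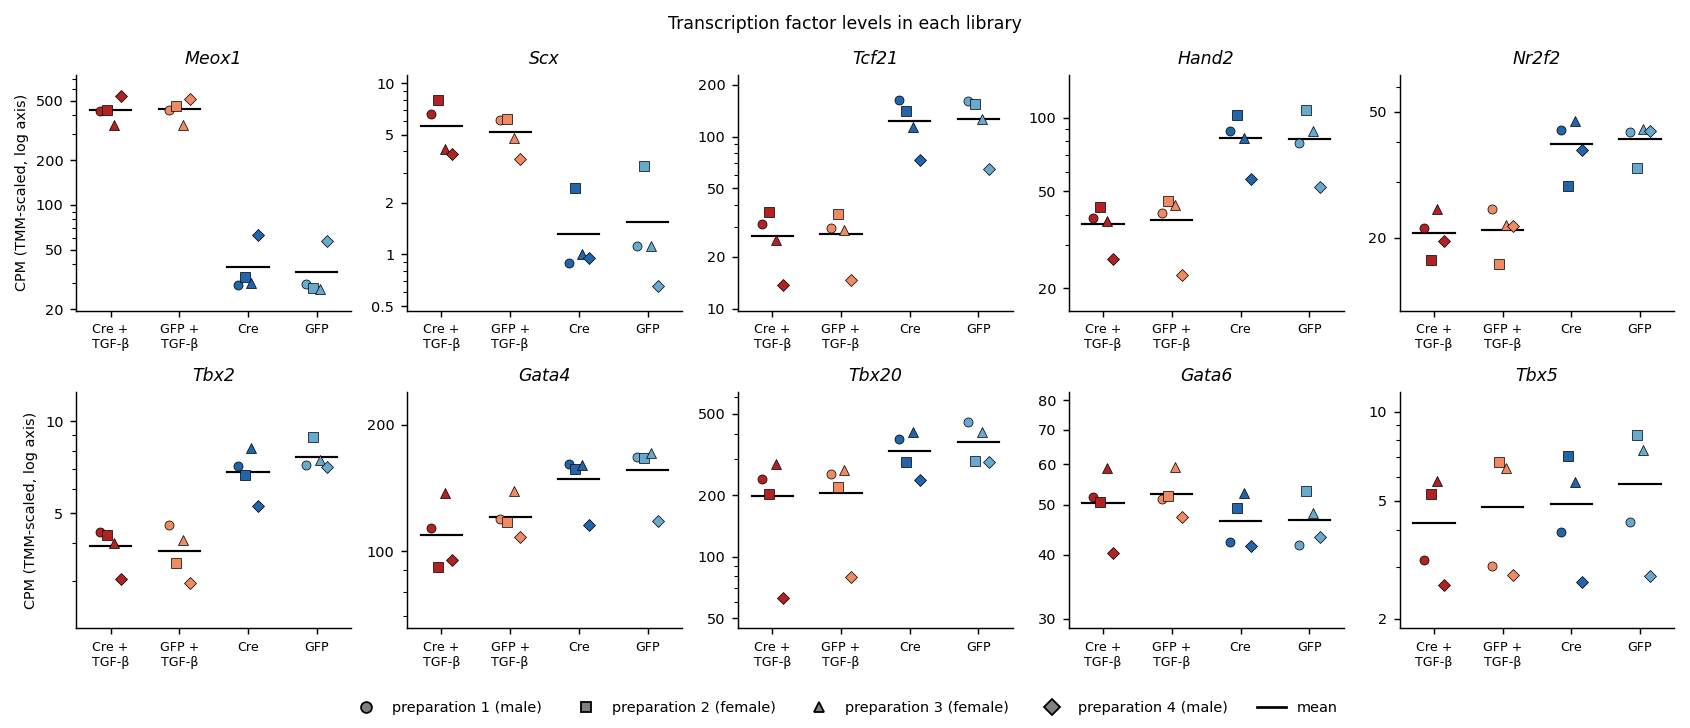
Level of each of the 10 transcription factors (CPM on a log axis) in the 4 groups; each point is 1 library, its shape the preparation, and each bar the mean of 4. Meox1 lies between 343 and 536 CPM in the 8 libraries with TGF-beta and between 27.4 and 62.5 CPM in the 8 without, while Tcf21 lies between 13.7 and 36.7 CPM with TGF-beta and between 64.5 and 164 CPM without.

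Meox1 (ENSMUSG00000001493, chromosome 11), a homeobox factor known as a switch of fibroblast activation in the stressed mouse heart, had the largest change of the 10. Cre cells with TGF-beta held 426, 435, 343 and 536 CPM of Meox1, against 29.2, 32.7, 29.9 and 62.5 CPM in Cre cells. GFP cells with TGF-beta held 435, 463, 346 and 514 CPM, against 29.4, 27.5, 27.4 and 57.3 CPM in GFP cells. The groups did not overlap in either cell type, and within each group without TGF-beta the library of preparation 4 was the highest. Meox1 rose 11.3-fold in Cre cells (log2 fold change 3.49, SE 0.30, edgeR adjusted p = 9.65e-07) and 12.4-fold in GFP cells (edgeR adjusted p = 8.35e-07). By preparation the log2 response was 3.87, 3.73, 3.52 and 3.10 in Cre cells and 3.88, 4.07, 3.66 and 3.17 in GFP cells, so it was smallest in preparation 4, whose level without TGF-beta was highest.

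Scx (ENSMUSG00000034161, chromosome 15), the tendon and valve bHLH factor scleraxis, which activates collagen genes, was the scarcest of the 10 without TGF-beta, with as few as 13 counts in a library. Levels of Scx were 6.58, 8.02, 4.15 and 3.85 CPM in Cre cells with TGF-beta, against 0.888, 2.43, 1.01 and 0.958 CPM in Cre cells. They were 6.13, 6.19, 4.80 and 3.62 CPM in GFP cells with TGF-beta, against 1.13, 3.28, 1.12 and 0.659 CPM in GFP cells. The groups did not overlap, but in GFP cells the lowest library with TGF-beta was only just above the highest without, which was that of preparation 2. Scx rose 4.22-fold in Cre cells (log2 fold change 2.08, SE 0.45, edgeR adjusted p = 0.00292) and 3.30-fold in GFP cells (log2 fold change 1.72, SE 0.45, edgeR adjusted p = 0.00990). By preparation the log2 response was 2.89, 1.72, 2.04 and 2.01 in Cre cells and 2.44, 0.92, 2.10 and 2.46 in GFP cells. The call was lost in Cre cells without preparation 1 (log2 fold change 1.84, edgeR adjusted p = 0.0547), and in GFP cells without preparation 1 (1.51, edgeR adjusted p = 0.112) or 3 (1.67, edgeR adjusted p = 0.0735). Without the GFP library of preparation 2 the response in GFP cells was 5.30-fold (2.41, edgeR adjusted p = 8.45e-04). With the preparation as a block it was held in each of those cases, with an adjusted p of at most 1.37e-04 in Cre cells and 6.93e-04 in GFP cells.

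Tcf21 (ENSMUSG00000045680, chromosome 10), the bHLH factor of the epicardium and of resting fibroblasts, fell furthest. In Cre cells Tcf21 had 31.0, 36.7, 25.2 and 13.7 CPM with TGF-beta, against 164, 141, 113 and 73.3 CPM without. The GFP cells had 29.6, 35.5, 28.6 and 14.7 CPM with TGF-beta, against 161, 154, 126 and 64.5 CPM without. Every library with TGF-beta lay below every library without, and the library of preparation 4 was the lowest in each group. Tcf21 was 4.62-fold lower in Cre cells (log2 fold change -2.21, SE 0.36, edgeR adjusted p = 3.29e-04) and 4.66-fold lower in GFP cells (log2 fold change -2.22, SE 0.36, edgeR adjusted p = 3.23e-04). The fall was of similar size in all preparations, at -2.40, -1.95, -2.17 and -2.42 in Cre cells and -2.44, -2.12, -2.14 and -2.13 in GFP cells on the log2 scale. Without the block, 14.0% of all genes rose and 16.3% fell in Cre cells, and 13.8% and 15.3% in GFP cells. Of the 12 fibroblast markers 1 (Mfap5) rose and 6 fell in both cell types beside Tcf21. Those that fell include the receptor Pdgfra, with log2 fold changes of -2.79 in Cre cells and -2.68 in GFP cells, the surface protein Thy1 (-2.14 and -2.05) and the collagen Col3a1 (-1.57 and -1.51). Lum (-1.54 and -1.55), Dcn (-1.35 and -1.43) and Ddr2 (-0.74 and -0.97) fell too. Col1a1 (0.75 and 0.85), Col1a2 (0.21 and 0.25), Vim (-0.19 and -0.14), Fbln2 (-0.06 and 0.03) and Gsn (-0.44 and -0.48) were not called. With the preparation as a block, 2 rose and 7 fell in Cre cells (25.2% and 27.3% of all genes). In GFP cells 3 rose (Mfap5, Col1a1 and Col1a2) and 6 fell (22.6% and 26.5% of all genes). Of the 10 mesothelial and epicardial markers 7 passed the filter. Without the block 1 (Krt18) rose and 2 (Aldh1a2 and Upk3b) fell in Cre cells (14.0% and 16.3% of all genes). In GFP cells 0 rose and 1 (Aldh1a2) fell (13.8% and 15.3% of all genes). The median log2 fold change of the 7 was -0.11 in Cre cells and -0.08 in GFP cells, and the epicardial factor Tbx18 stood at -0.11 and -0.08. The 7 summed to 229 to 316 CPM in the 8 libraries with TGF-beta and 525 to 827 CPM in the 8 without, of which Aldh1a2, an enzyme of retinoic acid synthesis, held most, with means of 241 CPM in Cre cells with TGF-beta, 254 in GFP cells with TGF-beta, 652 in Cre cells and 627 in GFP cells. The part of these cells in the fall of Tcf21 was not tested.

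Hand2 (ENSMUSG00000038193, chromosome 8), a bHLH factor of the heart ventricles and limb, fell as well. Cre cells with TGF-beta held 39.0, 43.0, 37.8 and 26.3 CPM of Hand2, against 88.1, 103, 82.5 and 56.0 CPM in Cre cells. GFP cells with TGF-beta held 40.6, 45.4, 43.7 and 22.7 CPM, against 78.7, 107, 87.9 and 52.0 CPM in GFP cells. The groups did not overlap, with preparation 4 lowest in each of them. Hand2 was 2.25-fold lower in Cre cells (log2 fold change -1.17, SE 0.25, edgeR adjusted p = 0.00275) and 2.14-fold lower in GFP cells (log2 fold change -1.10, SE 0.25, edgeR adjusted p = 0.00439). The antisense transcript Hand2os1, which runs from the other strand and shares 461 annotated exon bases (19.6% of those of Hand2), fell too, to 3.45 ± 1.42 CPM in Cre cells with TGF-beta, against 8.86 ± 1.77 CPM in Cre cells (SD, n = 4 each, edgeR adjusted p = 0.00272). In GFP cells it stood at 3.07 ± 1.02 CPM with TGF-beta, against 8.47 ± 1.36 CPM without (edgeR adjusted p = 0.00181). Whether reads were counted by strand is not given, so reads of the shared bases cannot be told apart between Hand2 and Hand2os1. The same limit holds for Nr2f2, which shares 643 exon bases (7.5%) with B130024G19Rik on the other strand. It also holds for Gata6, which shares 93 (1.43%) with 1010001N08Rik. These 2 transcripts had at most 48 and 106 counts in a library.

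The T-box repressor Tbx2 (ENSMUSG00000000093, chromosome 11), which holds back chamber genes in the developing heart, and the nuclear receptor Nr2f2 (ENSMUSG00000030551, chromosome 7), also called COUP-TFII and known for vein and atrium identity, both fell. Levels of Tbx2 were 4.35, 4.26, 3.99 and 3.05 CPM in Cre cells with TGF-beta, against 7.16, 6.67, 8.15 and 5.28 CPM in Cre cells. They were 4.57, 3.44, 4.09 and 2.96 CPM in GFP cells with TGF-beta, against 7.22, 8.89, 7.45 and 7.10 CPM in GFP cells. No library with TGF-beta reached a level seen without it. In Cre cells Nr2f2 had 21.5, 17.1, 24.6 and 19.5 CPM with TGF-beta, against 43.8, 29.2, 46.8 and 37.8 CPM without. The GFP cells had 24.6, 16.5, 22.0 and 21.8 CPM with TGF-beta, against 43.0, 33.1, 44.1 and 43.3 CPM without. Again the groups did not overlap, and the library of preparation 2 was the lowest in each. Tbx2 was 1.74-fold lower in Cre cells (log2 fold change -0.80, SE 0.18, edgeR adjusted p = 0.00324) and 2.04-fold lower in GFP cells (edgeR adjusted p = 5.43e-04). The Tbx2 call in Cre cells was lost without preparation 3 (-0.70, edgeR adjusted p = 0.0536). Nr2f2 was 1.90-fold lower in Cre cells (log2 fold change -0.93, SE 0.17, edgeR adjusted p = 6.21e-04) and 1.93-fold lower in GFP cells (edgeR adjusted p = 5.63e-04), with log2 responses between -1.05 and -0.84 in Cre cells when single libraries or preparations were left out. Of the 8 endothelial markers, all of which passed the filter, 0 rose and 3 fell in both cell types without the block (Pecam1, Tek and Tie1). Of all genes 14.0% rose and 16.3% fell in Cre cells, and 13.8% and 15.3% in GFP cells. With the block 0 endothelial markers rose and 5 fell in both, beside 25.2% and 27.3% of all genes in Cre cells and 22.6% and 26.5% in GFP cells. The 8 markers summed to 19.4 to 29.9 CPM in the 8 libraries with TGF-beta and 36.4 to 50.8 CPM in the 8 without. The part of endothelial cells in the fall of Nr2f2, which venous endothelium also expresses, was not tested.

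**Figure D2:**
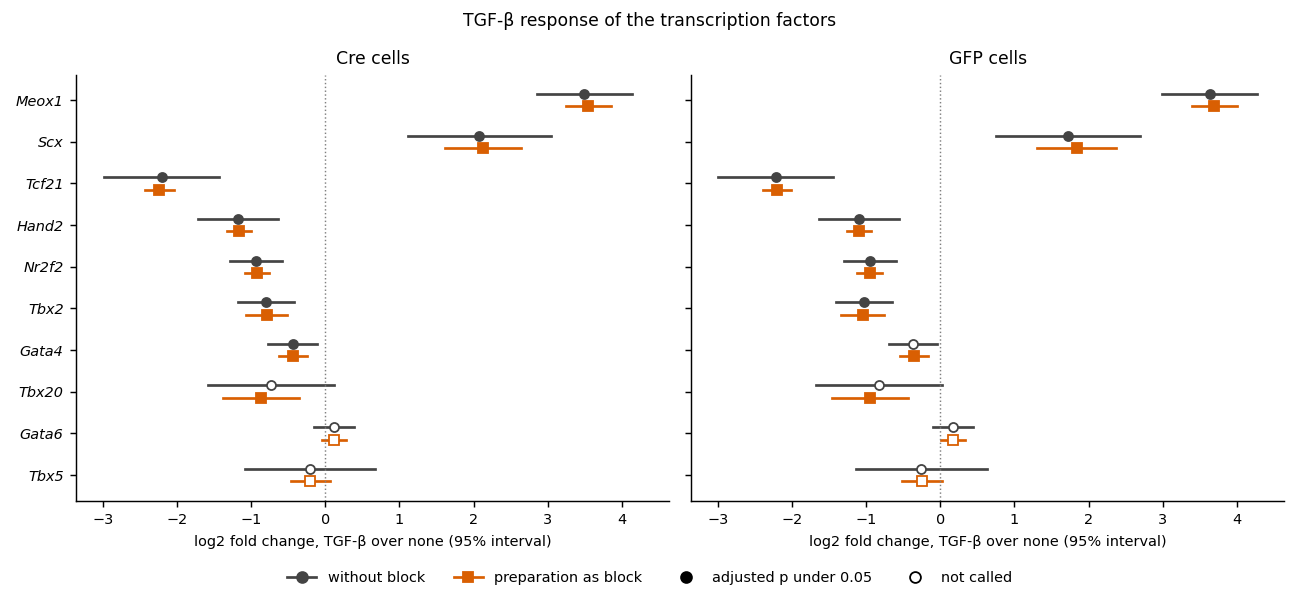
Log2 fold change of each factor with TGF-beta, in Cre cells and in GFP cells, with 95% confidence intervals, fitted without a block (circles) and with the preparation as a block (squares); filled symbols were called. Without the block Meox1 lies at 3.49 in Cre cells and 3.63 in GFP cells and Tcf21 at -2.21 and -2.22. The intervals of Gata4 lie below 0 in both fits, and those of Tbx20 only with the block.

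Promoters of 4 of the 10 factors were present in the RefSeq table used here (build GRCm38.p6), each from 250 bases before to 50 bases after the annotated start, 5′ to 3′ on the gene's strand. The 3 shown are those of factors that fell in both cell types without the block, Tcf21 at chr10:22820094-22820393 (minus strand), Hand2 at chr8:57320733-57321032 (plus strand) and Nr2f2 at chr7:70366697-70366996 (minus strand), and capitals mark CAGAC or its reverse complement GTCTG, the box that Smad proteins bind.
Tcf21: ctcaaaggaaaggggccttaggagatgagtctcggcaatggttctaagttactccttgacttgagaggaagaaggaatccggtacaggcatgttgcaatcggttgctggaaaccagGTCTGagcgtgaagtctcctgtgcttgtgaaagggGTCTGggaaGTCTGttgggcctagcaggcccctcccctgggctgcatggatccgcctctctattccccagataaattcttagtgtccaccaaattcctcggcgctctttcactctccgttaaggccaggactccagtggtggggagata
Hand2: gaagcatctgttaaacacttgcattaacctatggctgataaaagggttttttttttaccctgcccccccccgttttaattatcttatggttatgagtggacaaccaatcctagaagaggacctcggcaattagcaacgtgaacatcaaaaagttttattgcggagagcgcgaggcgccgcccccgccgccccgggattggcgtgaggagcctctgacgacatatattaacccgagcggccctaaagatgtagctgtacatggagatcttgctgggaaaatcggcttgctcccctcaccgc
Nr2f2: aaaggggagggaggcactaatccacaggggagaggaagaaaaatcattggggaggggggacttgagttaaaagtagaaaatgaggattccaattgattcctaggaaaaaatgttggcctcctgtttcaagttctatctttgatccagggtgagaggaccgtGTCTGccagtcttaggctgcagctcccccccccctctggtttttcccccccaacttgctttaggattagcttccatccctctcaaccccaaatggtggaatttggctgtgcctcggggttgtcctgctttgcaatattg
The box was found on either strand 3 times in the Tcf21 window, once in that of Nr2f2, once in that of Tbx20 and not in that of Hand2. Of all 32851 RefSeq windows of this length 49.6% hold it at least once and 3.9% at least 3 times. The E-box CANNTG, which bHLH factors bind, was found 2 times each in the Hand2 and Nr2f2 windows and in neither of the others, where 72.3% of all windows hold it. The motif AGATAA, which GATA factors bind, was found once in the Tcf21 and once in the Hand2 window (11.2% of all windows). The T-box half-site AGGTGT (13.7%), the nuclear receptor half-site AGGTCA (16.3%) and the AP-1 motif TGACTCA (5.2%) were searched on both strands and matched none of the 4 windows. These matches describe the letters only.

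Gata4 (ENSMUSG00000021944, chromosome 14), a zinc finger factor needed for heart formation, moved less than those above. Cre cells with TGF-beta held 113, 91.9, 137 and 95.5 CPM of Gata4, against 161, 157, 160.4 and 116 CPM in Cre cells. GFP cells with TGF-beta held 119, 117, 139 and 108 CPM, against 167, 167, 171 and 118 CPM in GFP cells. The groups overlapped in both cell types, and only through the libraries of preparation 4, which were the lowest without TGF-beta. Gata4 was 1.36-fold lower in Cre cells (log2 fold change -0.44, SE 0.16, edgeR adjusted p = 0.0436), and in GFP cells the log2 fold change was -0.37 (SE 0.16, edgeR adjusted p = 0.0889). With the preparation as a block Gata4 fell in both, by 0.44 on the log2 scale in Cre cells (edgeR adjusted p = 6.87e-04) and by 0.36 in GFP cells (edgeR adjusted p = 0.00347). The unblocked call in Cre cells was lost without preparation 1, 2 or 3 (edgeR adjusted p = 0.0585 to 0.267) and in 11 of the 16 fits that left out 1 library (edgeR adjusted p = 0.0511 to 0.123), also where the library was outside the comparison, and without preparation 4 Gata4 was called in GFP cells too (-0.43, edgeR adjusted p = 0.0136). Its relative Gata6 (ENSMUSG00000005836, chromosome 18) was not called in either fit. Levels of Gata6 were 51.9, 50.7, 59.0 and 40.3 CPM in Cre cells with TGF-beta, against 42.4, 49.2, 52.9 and 41.6 CPM in Cre cells. They were 51.4, 52.0, 59.3 and 47.4 CPM in GFP cells with TGF-beta, against 41.8, 53.2, 48.3 and 43.3 CPM in GFP cells. The groups overlapped, and the log2 fold change was 0.12 in Cre cells (95% interval -0.15 to 0.39) and 0.17 in GFP cells (95% interval -0.10 to 0.44). With the preparation as a block the intervals were -0.05 to 0.28 in Cre cells and 0.0035 to 0.34 in GFP cells. The latter lay just above 0 (edgeR unadjusted p = 0.0459 and adjusted p = 0.0845).

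Tbx20 (ENSMUSG00000031965, chromosome 9), a T-box factor of the adult heart and valves, was called with the preparation as a block. Without the block it was called only in fits that left out libraries of preparation 4. In Cre cells Tbx20 had 239, 201, 284 and 62.7 CPM with TGF-beta, against 378, 289, 405 and 238 CPM without. The GFP cells had 254, 218, 265 and 79.5 CPM with TGF-beta, against 456, 293, 409 and 289 CPM without. In Cre cells the groups overlapped, in GFP cells every library with TGF-beta lay below every one without, and the 2 libraries of preparation 4 with TGF-beta were far below the other 6. By preparation the log2 response was -0.66, -0.52, -0.51 and -1.93 in Cre cells and -0.84, -0.42, -0.62 and -1.86 in GFP cells. Without the block Tbx20 was not called, at -0.73 (SE 0.40, edgeR adjusted p = 0.177) in Cre cells and -0.82 (SE 0.40, edgeR adjusted p = 0.139) in GFP cells. With the block it fell by 0.87 in Cre cells (edgeR adjusted p = 0.00754) and by 0.95 in GFP cells (edgeR adjusted p = 0.00492). Without preparation 4 and without the block it fell by 0.56 in Cre cells (edgeR adjusted p = 0.0254) and by 0.65 in GFP cells (edgeR adjusted p = 0.0118), the direction of all 4 preparations.

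Tbx5 (ENSMUSG00000018263, chromosome 5), a T-box factor of the atria, conduction system and forelimb, was among the scarcest of the 10 and was not called. Cre cells with TGF-beta held 3.15, 5.27, 5.81 and 2.61 CPM of Tbx5, against 3.92, 7.08, 5.80 and 2.65 CPM in Cre cells. GFP cells with TGF-beta held 3.01, 6.78, 6.43 and 2.81 CPM, against 4.25, 8.32, 7.40 and 2.79 CPM in GFP cells. The groups overlapped widely, and in every group the libraries of the female preparations 2 and 3 were the 2 highest. The log2 fold change with TGF-beta was -0.21 in Cre cells (95% interval -1.09 to 0.67) and -0.26 in GFP cells (95% interval -1.14 to 0.63). With the preparation as a block the intervals were -0.47 to 0.06 in Cre cells and -0.52 to 0.02 in GFP cells.

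Counted without a model, every library with TGF-beta lay above every library without for 2 of the 10 factors in both cell types, beside 12.5% of all genes in Cre cells and 15.1% in GFP cells. Every library with TGF-beta lay below for 4 factors in Cre cells and 5 in GFP cells, beside 15.8% and 14.7% of all genes. Within preparations, 2 factors were higher with TGF-beta in 4 of 4 preparations of both cell types (Meox1 and Scx), and 6 were lower in 4 of 4 (Tcf21, Hand2, Tbx2, Nr2f2, Gata4 and Tbx20). Of all genes 25.5% were higher and 29.6% lower in 4 of 4 preparations in Cre cells, and 28.2% and 31.2% in GFP cells. Gata6 and Tbx5 went both ways.

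The opposite moves changed the balance between the factors. Per length of annotated exons (RPKM, the CPM divided by the exon length in kilobases), the order of the levels differed between the media. Meox1 led with TGF-beta, at 195 ± 35.5 RPKM in Cre cells and 197 ± 31.7 in GFP cells (SD, n = 4 each), and its lowest library was above the highest of Gata4, the next in order, at 28.1 and 30.9 RPKM. In Cre cells with TGF-beta the mean RPKM ran on with Gata4 at 28.1, Tbx20 at 16.4, Hand2 at 15.5, Tcf21 at 11.3, Gata6 at 7.76, Scx at 2.82, Nr2f2 at 2.40, Tbx2 at 1.08 and Tbx5 at 0.900, and the libraries of neighbours did not overlap for Meox1/Gata4, Gata6/Scx and Nr2f2/Tbx2. In GFP cells with TGF-beta the mean RPKM ran on with Gata4 at 30.9, Tbx20 at 17.0, Hand2 at 16.2, Tcf21 at 11.5, Gata6 at 8.07, Scx at 2.58, Nr2f2 at 2.46, Tbx2 at 1.04 and Tbx5 at 1.02, and the libraries of neighbours did not overlap for Meox1/Gata4, Gata4/Tbx20, Gata6/Scx and Nr2f2/Tbx2. Without TGF-beta Tcf21 led, at 52.3 ± 16.6 RPKM in Cre cells and 53.8 ± 18.7 in GFP cells, but its libraries overlapped those of the next. In Cre cells the mean RPKM ran on with Gata4 at 38.0, Hand2 at 35.0, Tbx20 at 27.3, Meox1 at 17.3, Gata6 at 7.15, Nr2f2 at 4.57, Tbx2 at 1.88, Tbx5 at 1.04 and Scx at 0.659, and the libraries of neighbours did not overlap for Meox1/Gata6, Gata6/Nr2f2 and Nr2f2/Tbx2. In GFP cells the mean RPKM ran on with Gata4 at 39.9, Hand2 at 34.6, Tbx20 at 30.1, Meox1 at 15.9, Gata6 at 7.17, Nr2f2 at 4.74, Tbx2 at 2.11, Tbx5 at 1.22 and Scx at 0.770, and the libraries of neighbours did not overlap for Meox1/Gata6, Gata6/Nr2f2, Nr2f2/Tbx2 and Tbx2/Tbx5. With the longest transcript as the length, 10 of the 40 places in these orders changed, each by 1 with its neighbour. Meox1 held 69.0 ± 8.46% of the summed RPKM of the 10 factors in Cre cells with TGF-beta, 68.2 ± 7.78% in GFP cells with TGF-beta, 10.0 ± 6.17% in Cre cells and 9.06 ± 5.85% in GFP cells (SD, n = 4 each). The other 9 summed to 86.3 ± 19.2, 90.9 ± 18.8, 168 ± 34.4 and 174 ± 37.7 RPKM in the same groups, and these sums did not overlap between the media of either cell type.

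The Cre virus did not move the factors detectably. Of the 10 factors 0 were called in either medium, with or without the block. Without the block edgeR called 0% of all genes in both media, with 268 genes at an unadjusted p under 0.05 with TGF-beta and 169 without, while DESeq2 called 0 of the 10 factors, and over all genes 0 with TGF-beta and 3 without. With the block, 0.0654% of all genes were called higher and 0% lower with TGF-beta, and 0.164% higher and 0.00654% lower without. These shares depend on preparation 4, without which the block called 224 genes higher and 8 lower with TGF-beta and 103 higher and 11 lower without, and 0 of the 10 factors. With TGF-beta the log2 differences of Cre against GFP cells ran from -0.18 (Tbx5) to 0.13 (Scx), with a median of -0.04 beside -0.005 over all genes. Without it they ran from -0.23 (Tbx5) to 0.13 (Meox1), with a median of -0.06 beside -0.01 over all genes. Every library of the Cre cells above or below every library of the GFP cells was seen for 0 of the 10 factors in both media. Among all genes it was seen for 0.824% (above) and 0.752% (below) with TGF-beta, and for 1.13% and 0.334% without.

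A difference that was not called is not shown to be 0, and the intervals give the sizes these libraries allow. With the preparation as a block and with TGF-beta, the 95% interval of Tcf21 was -0.23 to 0.15, that of Meox1 -0.30 to 0.25 and that of Tbx20 -0.59 to 0.42. Without TGF-beta that of Tcf21 was -0.19 to 0.17, and the widest of the 10 in either medium was that of Scx, at -0.75 to 0.38. Gata4 was lower in Cre than in GFP cells in 4 of 4 preparations in both media, by -0.07, -0.35, -0.01 and -0.18 with TGF-beta and by -0.05, -0.09, -0.09 and -0.03 without on the log2 scale, which did not pass the test (edgeR adjusted p = 0.473 and 0.924 with the block). Tbx20 and Tbx5 were lower in 3 of 4 preparations with TGF-beta, and lower in all 4 in the other medium. Thus 1 of the 10 was lower in all 4 with TGF-beta, beside 14.1% of all genes (10.1% were higher), and 3 without, beside 13.3% (12.7% were higher). The remaining factors went both ways over the preparations.

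**Figure D3:**
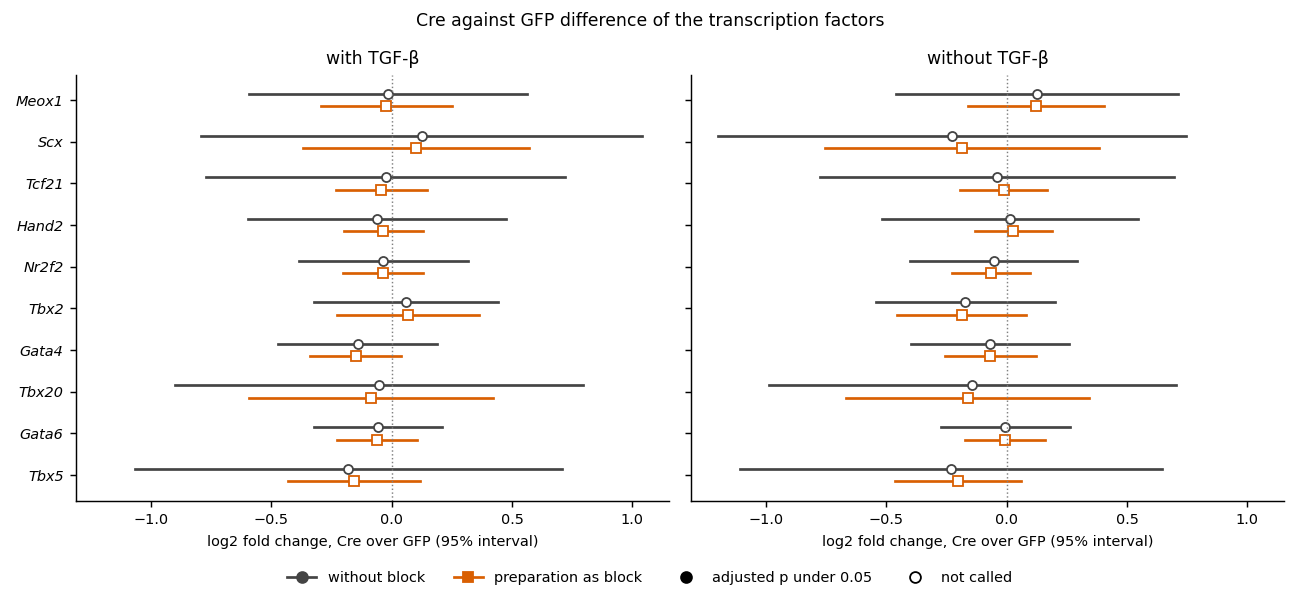
Log2 difference of each factor between Cre and GFP cells, with and without TGF-beta, with 95% confidence intervals fitted without a block (circles) and with the preparation as a block (squares). All intervals include 0, and the fitted differences lie between -0.23 and 0.13 without the block.

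Whether the response to TGF-beta differed between Cre and GFP cells was tested as the difference of the 2 responses. None of the 10 factors was called in either fit, beside 0% of all genes, with an unadjusted p under 0.05 for 501 genes with the block and for 90 without it, and DESeq2 also called 0. The differences ran from -0.14 (Meox1) to 0.35 (Scx) on the log2 scale without the block. With it the 95% interval was -0.29 to 0.23 for Tcf21, -0.29 to 0.16 for Hand2, -0.20 to 0.26 for Nr2f2 and, at the widest, -0.45 to 1.02 for Scx.

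The factors also varied over the preparations. Taken over the 4 groups, 8 of the 10 factors were lowest in preparation 4, the exceptions being Meox1, which was highest there, and Nr2f2, which was lowest in preparation 2. Mean deviations from the group means in preparations 1 to 4 were 0.35, 0.41, 0.05 and -0.81 for Tcf21 on the log2 scale. For Tbx20 they were 0.39, 0.01, 0.45 and -0.85, and for Meox1 -0.13, -0.08, -0.31 and 0.53. The distance between the highest and the lowest preparation was 1.32 for Scx, 1.30 for Tbx5, 1.30 for Tbx20 and 1.22 for Tcf21, beside a median of 0.48 over all genes, and it was above that median for 7 of the 10. Gata6, Tbx2 and Gata4 varied least, with distances of 0.34, 0.39 and 0.47.

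Tbx5 split the preparations by labelled sex. In each of the 4 groups both female preparations stood above both male ones, with mean deviations of 0.58 and 0.48 in the female and -0.34 and -0.72 in the male preparations. Of all genes 1.45% did so, and 0.635% had both male above both female preparations in each group. With 2 preparations per sex, sex and preparation cannot be told apart. The gene closest to Tbx5 in its course over the 16 libraries was Kdm5c, an X-linked histone demethylase that escapes X inactivation. Its root-mean-square distance was 0.225 on the centred log2 scale, beside a median of 0.658 over the 12891 genes compared. Fan1 (0.278) and Itga7 (0.294) came next.

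**Figure D4:**
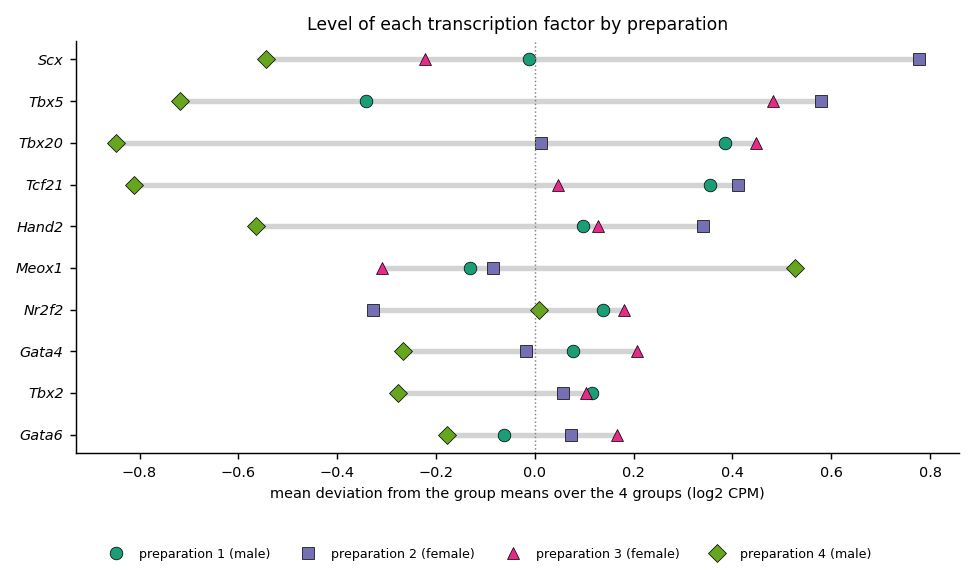
Mean deviation of each factor from its group means (log2 CPM, over the 4 groups) in each preparation, sorted by the distance between the highest and the lowest. Preparation 4 is the lowest for 8 of the 10 factors and the highest for Meox1, and the female preparations are the highest for Tbx5.

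Profiles close to those of the other factors were found by the same distance, as a description that says nothing of shared control. Tcf21 was closest to the aminopeptidase Anpep (0.177), the interleukin receptor-associated kinase Irak3 (0.200) and 1500009L16Rik (0.208). Anpep averaged 14.5 ± 4.28 CPM in Cre cells with TGF-beta, 16.4 ± 4.56 in GFP cells with TGF-beta, 64.5 ± 22.0 in Cre cells and 74.3 ± 22.3 in GFP cells (SD, n = 4 each). Meox1 was closest to the growth factor genes Hbegf (0.412) and Pdgfc (0.431) and to the transcription factor Sox8 (0.422), whose distances were the largest among the closest genes of the 10. Scx was closest to Csrp2, a LIM protein of smooth muscle (0.190), and to the stress genes Gadd45b and Gadd45g, and Tbx20 to Gm43682, Map2 and the proteoglycan versican, Vcan (0.213). Hand2 was closest to the galactosyltransferase B4galt1 (0.107), Tbx2 to the carbonic anhydrase Car13 (0.163), and Nr2f2 to the kinase Map4k4 (0.128). Gata4 and Gata6, which varied little, had the smallest distances, to Zhx3 (0.101) and Mark4 (0.0821).

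Of 27 relatives of the factors within their families 14 passed the filter. With TGF-beta 0 rose and 4 fell in Cre cells, beside 14.0% and 16.3% of all genes, and 0 rose and 2 fell in GFP cells, where 2 of 14 is near the 15.3% of all genes that fell. Their medians were -0.35 and -0.22. Meox2, the closest relative of Meox1, went the other way from it. Meox2 had 0.551, 0.377, 0.395 and 0.0401 CPM in Cre cells with TGF-beta, against 8.18, 3.62, 5.80 and 2.73 CPM in Cre cells. In GFP cells Meox2 stood at 0.669, 0.269, 0.468 and 0.439 CPM with TGF-beta, against 9.32, 4.28, 6.47 and 3.70 CPM without. The lowest value in Cre cells with TGF-beta, that of preparation 4, rests on 1 count. The groups were far apart, and the log2 fold change was -3.85 (SE 0.52, edgeR adjusted p = 6.19e-05) in Cre cells and -3.73 (SE 0.52, edgeR adjusted p = 8.10e-05) in GFP cells. Nr2f1 (COUP-TFI), the relative of Nr2f2, fell with it and further, to 20.0 ± 3.11 CPM in Cre cells with TGF-beta, against 68.4 ± 12.0 in Cre cells (SD, n = 4 each, log2 fold change -1.77, edgeR adjusted p = 5.40e-06). In GFP cells Nr2f1 stood at 19.7 ± 4.49 CPM with TGF-beta, against 64.2 ± 11.9 CPM without (log2 fold change -1.71, edgeR adjusted p = 7.98e-06). The bHLH genes Twist1 and Tcf23 fell in Cre cells, by 0.43 (edgeR adjusted p = 0.0101) and 1.82 (edgeR adjusted p = 0.0360), and were not called in GFP cells (-0.27 and -1.67). With the block 0 rose and 6 fell in Cre cells (25.2% and 27.3% of all genes), and 0 rose and 5 fell in GFP cells (22.6% and 26.5%).

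**Figure D5:**
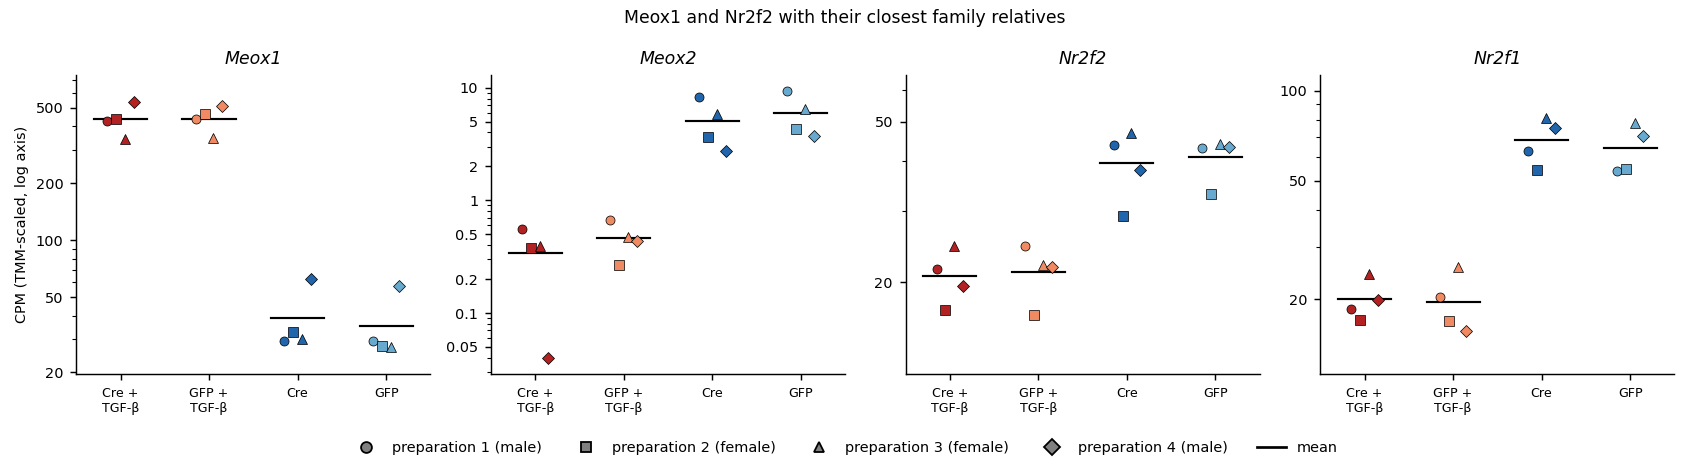
CPM (log axis) of family members side by side in the 4 groups; each point is 1 library, its shape the preparation, and each bar the mean of 4. Meox2 lies between 0.0401 and 0.669 CPM in the 8 libraries with TGF-beta and between 2.73 and 9.32 CPM in the 8 without, the opposite of Meox1, whereas Nr2f1 and Nr2f2 are both lower with TGF-beta.

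Genes whose products bind or restrain these factors, and 2 further lists, were counted beside the same shares of all genes, which were 14.0% higher and 16.3% lower in Cre cells and 13.8% and 15.3% in GFP cells (25.2% and 27.3%, and 22.6% and 26.5%, with the block). Of 19 partners and inhibitors, all of which passed the filter, 3 rose and 7 fell with TGF-beta in Cre cells and 3 rose and 8 fell in GFP cells (4 and 9, and 5 and 9, with the block), with medians of -0.25 and -0.33. The 3 of 19 that rose are near the share of all genes. Smad3, the DNA-binding effector of TGF-beta signalling, fell by 1.24 on the log2 scale in Cre cells (SE 0.14, edgeR adjusted p = 1.24e-05) and by 1.16 in GFP cells (SE 0.14, edgeR adjusted p = 2.32e-05). Mef2c, which acts with Gata4, Hand2 and Tbx5 in heart muscle, fell by 1.30 in Cre cells and 1.57 in GFP cells. The GATA cofactor Zfpm1 rose by 0.47 in Cre cells (edgeR adjusted p = 0.00256) and by 0.69 in GFP cells (edgeR adjusted p = 1.33e-04). The Id proteins hold bHLH factors such as Tcf21, Scx and Hand2 off DNA by binding their partners, and Id1 fell by 1.11 in Cre cells and 1.23 in GFP cells.

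Among 30 other transcription factors of mesenchymal cells, of which 29 passed the filter, 6 rose and 7 fell in Cre cells and 6 rose and 8 fell in GFP cells (6 and 13, and 6 and 14, with the block), with medians of -0.26 and -0.37. The forkhead factors Foxs1 and Foxp1 rose, by 2.22 and 1.12 on the log2 scale in Cre cells and by 2.04 and 1.02 in GFP cells. Prrx1, a homeobox factor of fibroblasts and limb mesenchyme, fell by 1.21 in Cre cells and 1.25 in GFP cells, and the zinc finger factor Klf4 by 1.01 and 1.00. All 4 had an edgeR adjusted p of at most 1.56e-04 in both cell types. Of 13 tendon genes linked to scleraxis 11 passed the filter, and 1 rose and 4 fell in both cell types (3 and 6 in Cre cells and 4 and 6 in GFP cells with the block), with medians of -0.30 and -0.26. The one called higher was the collagen crosslinking enzyme Lox, which rose by 1.92 in Cre cells (edgeR adjusted p = 8.11e-04) and 1.82 in GFP cells (edgeR adjusted p = 0.00125). The collagen Col14a1 fell by 3.48 and 3.45, and the small proteoglycans Fmod (by 1.77 and 1.92) and Dcn (by 1.35 and 1.43) fell with it. In Cre against GFP cells 0 genes of these 4 lists were called in either medium or fit.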

How the data were processed

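Per the labels' protocols, libraries were prepared from Trizol-isolated, DNase-treated RNA with NEBNext Ultra II reagents. The authors' table holds counts per gene that were not normalized. The submitters' processing notes name HTSeq 0.10.0, FastQC 0.10.1 and the build GRCm39 (mm39), and a strand setting is not given in the sources used here. Whole-number counts of 55414 genes were used as deposited, of which 52081 carried a symbol.

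Genes were filtered with filterByExpr of edgeR 4.0.16 in R 4.3.3 (minimum count 10, minimum total 15), which kept 99.9% of all counts. With TMM scaling (factors 0.908 to 1.12), 1 mean per group and all 16 libraries, a quasi-likelihood F test was run for each contrast, with Benjamini-Hochberg adjustment over all 15285 genes and a threshold of 0.05. The standard error is the log2 fold change divided by the root of F, with a prior count of 0.125. The biological coefficient of variation was 0.254 without and 0.123 with the preparation as a block. DESeq2 1.42.0 was run as an alternative, and results that leave out libraries or preparations, use other scaling, other filters or only the libraries compared are given in the closing section.

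Library names give same-numbered libraries a shared code, so numbers were taken to mark preparations. The 24 same-numbered pairs had deviations from the group means correlated at 0.323 to 0.838 (median 0.497), and the 72 others had a median of -0.13. No 2 libraries of a group agreed within counting noise (chi-square per gene 7.24 to 217 over 24 pairs). RPKM used exon lengths of GENCODE M21 (GRCm38), since lengths on the build of the counts were not used here. The 10 genes and the gene lists were chosen with earlier results of these data known. Named besides them are Has2, genes that share exon bases with a factor, and 1 or more of the 3 genes closest to each over the 16 libraries. Closest genes were sought among those with a mean of at least 1 CPM. Per list, the 4 genes whose adjusted p with TGF-beta was smallest in GFP cells are named too. The test was also run on simulated counts of fixed dispersion, with known changes in GFP cells with TGF-beta only. The outcome of that run is not given here.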

Additional observations from a re-analysis of the deposited data

Results flagged for a closer look

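Of 40 groups of 4 libraries (10 factors in 4 groups), 6 had a library far from the other 3. Chance gives about 1 in 20 for independent groups with a normal spread. These groups share preparations, so the 6 are not independent and that rate is no measure for them. Meox1 stood at 62.5 CPM in the Cre library of preparation 4, where the other 3 Cre libraries lay between 29.2 and 32.7 CPM. It stood at 57.3 CPM in the GFP library of the same preparation, where the others lay between 27.4 and 29.4 CPM. Gata4 was low in those libraries, at 116 CPM in the Cre library of preparation 4, with the others between 157 and 161 CPM, and at 118 CPM in its GFP library, with the others between 167 and 171 CPM. Scx stood at 2.43 CPM in the Cre library of preparation 2, with the others between 0.888 and 1.01 CPM. Nr2f2 stood at 33.1 CPM in the GFP library of preparation 2, with the others between 43.0 and 44.1 CPM. None of the 6 was a library with TGF-beta.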

How the results depend on the processing

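The alternatives were DESeq2, another scaling (RLE), no filter, a filter of 5 CPM in 4 libraries, a fit of only the libraries compared, the preparation as a block, and 24 fits that left out a library or a preparation. Over the 10 factors the response to TGF-beta kept its direction and side of the threshold in 275 of 300 values in Cre cells (18 lost the call, 6 gained it and 1 reversed) and in 284 of 300 in GFP cells (2 lost it and 14 gained it). Leaving out libraries or preparations gave 1 to 2 factors called higher in both cell types, and 3 to 6 lower in Cre cells and 4 to 6 in GFP cells. The other alternatives gave 2 higher and 4 to 6 lower. Gata4 in Cre cells lost its call without the filter (edgeR adjusted p = 0.0707) and with only the libraries compared (edgeR adjusted p = 0.0826). The response of Tbx5 in Cre cells was -0.40 to 0.037 over the leave-outs, and positive without the Cre library of preparation 2.

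With the replicate block, which pairs libraries of a preparation, all genes called higher and lower were 3856 and 4174 in Cre cells and 3451 and 4047 in GFP cells, against 2134 and 2495 and 2105 and 2340 without it. For Cre against GFP the block gave 10 higher and 0 lower with TGF-beta and 25 higher and 1 lower without, where edgeR without it gave 0 (17 higher without TGF-beta once preparation 4 was left out). Without preparation 4 the block gave 224 and 8 with TGF-beta and 103 and 11 without. Beside the calls of Gata4 and Tbx20 given above and those of the gene lists, the block changed no call of the 10 factors. It turned the difference of responses of Tcf21 to -0.030.

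Small differences that were not called changed sign with single libraries. The log2 difference of Cre against GFP cells ran over the leave-outs, with TGF-beta, from -0.23 to 0.19 (Tcf21), -0.13 to 0.082 (Meox1), -0.091 to 0.27 (Scx), -0.14 to 0.038 (Gata6), -0.32 to 0.24 (Tbx20), -0.38 to 0.051 (Tbx5), -0.24 to 0.068 (Hand2), -0.039 to 0.17 (Tbx2) and -0.14 to 0.046 (Nr2f2). Without TGF-beta it ran from -0.26 to 0.14 (Tcf21), -0.21 to 0.46 (Meox1), -0.72 to 0.46 (Scx), -0.18 to 0.032 (Gata4), -0.072 to 0.065 (Gata6), -0.48 to 0.014 (Tbx5), -0.15 to 0.18 (Hand2) and -0.15 to 0.065 (Nr2f2). The difference of the responses ran from -0.19 to 0.26 (Tcf21), -0.46 to 0.21 (Meox1), -0.33 to 0.84 (Scx), -0.20 to 0.058 (Gata4), -0.14 to 0.043 (Gata6), -0.18 to 0.39 (Tbx20), -0.19 to 0.30 (Tbx5), -0.26 to 0.11 (Hand2) and -0.10 to 0.11 (Nr2f2). Without the filter Gata6 stood at 0.00178 without TGF-beta, and with the stricter filter Meox1 stood at 0.00332 with it. In no leave-out was any of these called. RLE scaling moved the median of all genes by at most 0.0023 on the log2 scale. Depth limits Scx most, with 13 to 230 counts a library, then Tbx5 with 54 to 344 and Tbx2 with 70 to 324.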

Other observations

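Kdm5c, the gene closest to Tbx5 over the libraries, stood at 111, 162, 168 and 68.4 CPM in Cre cells with TGF-beta and at 113, 189, 184 and 99.6 CPM in GFP cells with TGF-beta, in the order of preparations 1 to 4. It stood at 98.5, 169.6, 179.6 and 81.1 CPM in Cre cells and at 106, 175, 181 and 97.4 CPM in GFP cells. In every group both female preparations, 2 and 3, were above both male ones, as for Tbx5. With 2 preparations per sex, sex and preparation cannot be told apart for either gene.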
